A study of Mus musculus with 21 samples.

Results

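The 10 genes described here, Tlr1 to Tlr9 and Tlr13, encode the Toll-like receptors that were chosen by symbol, 10 of the 55401 genes in the count table. Each symbol matched 1 mouse gene identifier, and 9 of the 10 had counts in each of the 21 forebrain libraries. Toll-like receptors are membrane proteins of the innate immune system that bind microbial molecules and products of damaged cells. In the brain they are known mainly from microglia, the resident macrophages of the tissue, and astrocytes and neurons carry some of them. Receptors on the cell surface bind lipids and proteins, and receptors in endosomes bind nucleic acids. All of them except Tlr3 signal through the adaptor Myd88, Tlr3 signals through Ticam1 (TRIF), and Tlr4 uses both, with NF-kB and interferon regulatory factors acting downstream.

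Without tau there were 3 mice of each of E2H, E3H and E4H, called parental here, in which human APOE2, APOE3 or APOE4 replaces mouse Apoe on both chromosomes, taken at 9 to 10 months of age on a C57BL6 background. There were 4 mice of each of the crosses with the PS19 tau line, PS/E2H, PS/E3H and PS/E4H, which are homozygous for the same human alleles and also carry 1 copy of the PS19 transgene, human P301S tau driven by the mouse prion promoter. The PS19 line was kept on a B6/C3H background, its APOE homozygotes came from a second cross to the APOE lines, and the mice were killed at hindlimb paralysis. Wherever PS19 mice are set against parental mice, tau genotype, paralysis, age at death and genetic background therefore cannot be told apart. Whole pulverized forebrain was sequenced, so fewer cells of a type and less RNA per cell cannot be told apart either.

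The libraries held 59265459 to 75932183 counts. Microglial markers were detected in all 6 groups, with a summed level over 13 markers of 460 to 1042 CPM (counts scaled to the size of the library). Xist, the RNA of the inactive X chromosome, stood at 10.3 FPKM or more in 17 mice and at 0.143 FPKM or less in 4 mice, which had 2517 to 4246 counts of the Y-linked gene Ddx3y against at most 21 in the others. FPKM is the number of fragments scaled to transcript length and library size. The 4 low-Xist mice were 1 E4H, 1 PS/E2H and 2 PS/E4H mice. By these genes most mice were female, whereas the methods of the study describe most as male, with the exceptions in the same 3 groups. The comparisons of PS19 with parental mice on APOE2, on APOE4 and over all lines were therefore repeated without these 4 mice. Receptor results are given both ways where a call changed. PS/E4H against the other PS19 groups, the interaction tests and the ratios between genes were not repeated without all of the low-Xist mice. Of the receptors 3, Tlr7, Tlr8 and Tlr13, are X-linked.

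The genes lie on 7 chromosomes of GRCm38 in the GENCODE M21 annotation. The surface receptors are Tlr1 (chromosome 5, 64924679 to 64933563, minus strand), Tlr6 (chromosome 5, 64952031 to 64960097, minus strand), Tlr2 (chromosome 3, 83836272 to 83841767, minus strand), Tlr4 (chromosome 4, 66827584 to 66930284, plus strand) and Tlr5 (chromosome 1, 182954788 to 182976044, plus strand). The endosomal receptors are Tlr3 (chromosome 8, 45395665 to 45411080, minus strand), Tlr7 (chromosome X, 167304929 to 167330558, minus strand), Tlr8 (chromosome X, 167242696 to 167264329, minus strand), Tlr9 (chromosome 9, 106222598 to 106226883, plus strand) and Tlr13 (chromosome X, 106143204 to 106160493, plus strand). Tlr1 and Tlr6 are neighbouring copies of an ancestral gene, and 15.4% of the 50-base windows in the exons of Tlr1 and 12.3% of those of Tlr6 occur elsewhere in the annotated transcripts, in each other among them. Their separate counts depend on how the counting divided shared reads. Tlr3 overlaps a predicted gene on the opposite strand, Gm45542, and 5.3% of its windows are shared with it.

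RefSeq promoters of the GRCm38.p6 build were matched for 8 of the 10 genes, Tlr1, Tlr2, Tlr3, Tlr5, Tlr6, Tlr8, Tlr9 and Tlr13. In the 250 bases before the RefSeq start, 4 of the 8 held the core letters GAGGAA bound by PU.1, the myeloid factor that Spi1 encodes, against 23.3% of all 32851 promoter windows of that length. The letters GGGANTT, part of the NF-kB site, were in 2 of 8, Tlr2 and Tlr3, against 14.4% of all windows, TATAAA in 2 of 8 against 12.4%, and TGANTCA of AP-1 in 1 of 8 against 6.75%. Each motif was searched on both strands. A match is a match of letters in this window and was not tested as a binding site. In the fit over all lines described below, Tlr8, the other receptor with GAGGAA besides Tlr1, Tlr9 and Tlr13, did not pass by edgeR. Tlr6, which held neither GAGGAA nor GGGANTT, passed higher there. The upstream sequences of 4 receptors that held GAGGAA or GGGANTT and were higher in PS19 mice are printed here, from the RefSeq window up to the first base of the annotated gene. Tlr3, which held GGGANTT and also passed higher over all lines, is not among them. The printed sequences have GAGGAA in capitals in Tlr1, Tlr9 and Tlr13 and, in Tlr2, the stretch in which GGGANTT lies on both strands, overlapping. They are chr5:64933564-64933808 (minus strand) for Tlr1, chr3:83841768-83841858 (minus strand) for Tlr2, chr9:106222348-106222597 (plus strand) for Tlr9 and chrX:106143025-106143203 (plus strand) for Tlr13, each 5′ to 3′.
Tlr1: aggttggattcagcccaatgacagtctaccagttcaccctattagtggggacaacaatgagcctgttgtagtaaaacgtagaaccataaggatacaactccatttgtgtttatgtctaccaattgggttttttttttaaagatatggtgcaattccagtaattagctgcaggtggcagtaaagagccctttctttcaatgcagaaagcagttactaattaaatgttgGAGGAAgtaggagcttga
Tlr2: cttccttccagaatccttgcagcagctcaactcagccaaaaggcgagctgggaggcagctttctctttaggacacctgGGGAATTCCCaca
Tlr9: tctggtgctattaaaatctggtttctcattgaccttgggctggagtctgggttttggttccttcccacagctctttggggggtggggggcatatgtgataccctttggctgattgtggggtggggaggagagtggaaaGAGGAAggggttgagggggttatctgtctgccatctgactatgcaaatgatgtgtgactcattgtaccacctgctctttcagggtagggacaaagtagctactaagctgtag
Tlr13: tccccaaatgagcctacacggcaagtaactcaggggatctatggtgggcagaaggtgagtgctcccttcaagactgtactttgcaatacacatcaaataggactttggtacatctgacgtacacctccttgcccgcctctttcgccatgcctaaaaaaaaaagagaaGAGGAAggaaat
The capitals ended 12 bases before the end of the printed stretch in Tlr1, 3 in Tlr2, 106 in Tlr9 and 6 in Tlr13.

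In the parental forebrain the receptors stood in a steep order of abundance, which length-scaled FPKM values allow to be compared between genes. Tlr3, the receptor for long RNA duplexes, was highest in all 3 groups, at 2.22 ± 0.078 FPKM in E2H, 2.53 ± 0.27 in E3H and 2.49 ± 0.18 in E4H (mean ± SD, n = 3), and every mouse of each group had more Tlr3 than any other receptor. Tlr2, Tlr7 and Tlr13 followed at group means of 0.470 to 0.766 FPKM. In E2H mice the ranges of Tlr2 and Tlr7 overlapped, and in E3H and E4H mice the ranges of Tlr7, Tlr13 and Tlr2 overlapped between neighbours, so their order is not resolved there. Tlr4, Tlr9, Tlr6 and Tlr1 had group means of 0.137 to 0.366 FPKM, and Tlr5 and Tlr8 were lowest at 0.0148 to 0.0669. Tlr5, the flagellin receptor, had 11 to 31 counts in a parental mouse, and Tlr8 had 0 to 23.

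In PS19 mice Tlr3 no longer stood apart from the rest. The summed level of the 10 receptors was 5.26 ± 0.466 FPKM in the 9 parental mice and 12.1 ± 2.90 FPKM in the 12 PS19 mice, and the lowest PS19 mouse, at 6.95 FPKM, lay above the highest parental mouse, at 6.24. The share of Tlr3 in that sum was 43.0% to 50.1% in parental mice and 20.6% to 31.7% in PS19 mice. The share of Tlr2 was 6.66% to 17.6% in parental mice and 14.1% to 29.9% in PS19 mice. In PS/E4H mice the mean of Tlr2, 3.45 ± 0.84 FPKM, stood above that of Tlr3, 3.33 ± 0.60, but the ranges overlapped, as did those of Tlr3, Tlr2 and Tlr7 in each PS19 group. The plot of summed levels shows these shares by group.

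**Figure D1:**
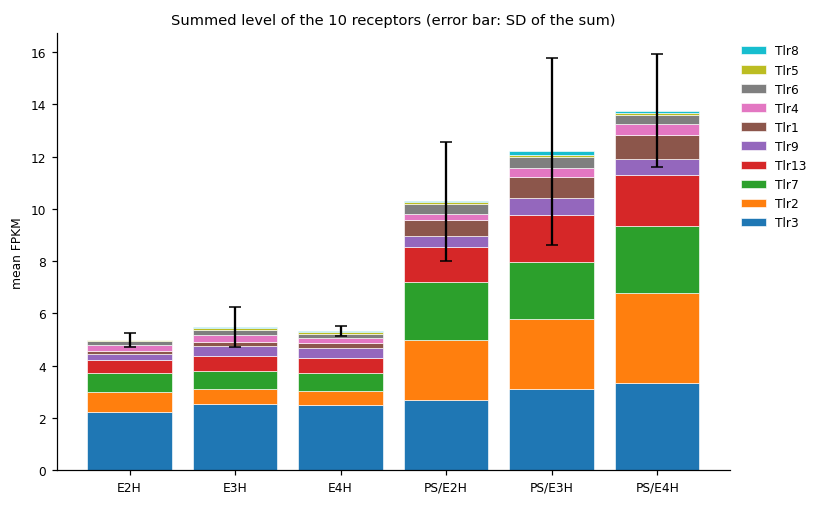
Mean FPKM of each receptor stacked by group (3 parental mice or 4 PS19 mice per bar), with an error bar for the SD of the sum. The sum was 4.99 FPKM in E2H, 5.48 in E3H, 5.32 in E4H, 10.3 in PS/E2H, 12.2 in PS/E3H and 13.8 in PS/E4H. Among the receptors that passed the test over all lines, the Tlr3 segment grew least in proportion on APOE3 and APOE4, and the Tlr4 segment on APOE2.

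The PS19 mice were set against the parental mice of the same APOE line. The difference is called the tau effect for short, although paralysis, age at death and genetic background go with it. On APOE4, 5 of the 10 receptors passed the test higher in PS/E4H than in E4H mice and 0 lower (edgeR quasi-likelihood test, Benjamini-Hochberg adjusted p under 0.05 over all genes), where 8.62% of all 20844 genes tested passed higher and 6.98% lower. They were the surface receptors Tlr1, Tlr2 and Tlr4 and the endosomal receptors Tlr7 and Tlr13, each with a fold of at least 2, which 2.4% of all genes reached as well as passing. The median log2 fold change was 1.24 over the 10 receptors and -0.0023 over all genes tested. On APOE3, 4 of 10 passed higher and 0 lower, namely Tlr1, Tlr2, Tlr7 and Tlr13, against 3.35% higher and 2.02% lower of all 21251 genes, with medians of 1.33 and -0.0043. Each had a fold of at least 2, as did 1.2% of all genes tested. On APOE2, 2 of the 9 receptors tested passed higher and 0 lower, namely Tlr1 and Tlr13, against 0.669% higher and 0.0825% lower of all 20617 genes, with medians of 1.42 and -0.015. Both had a fold of at least 2, as 0.451% of all genes did. Tlr8 did not reach the count filter on APOE2. With the 3 lines in 1 fit that adjusts for line, 8 of 10 passed higher and 0 lower, against 11.4% higher and 9.63% lower of all 22863 genes, and 5 of these, Tlr1, Tlr2, Tlr6, Tlr7 and Tlr13, also had a fold of at least 2, against 2.24% of all genes.

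The number that passed on APOE3 and APOE2 rested on single mice. Leaving out 1 mouse left 5 or 6 receptors on APOE4, but on APOE3 it left 1 without E3H replicate 1, 2 without E3H replicate 2 or 3 and 7 without PS/E3H replicate 1. The share of all genes that passed in either direction moved likewise, from 5.37% with all mice to 0.522% without E3H replicate 1, 1.18% and 0.957% without replicates 2 and 3 and 12.4% without PS/E3H replicate 1. On APOE4 that share ran from 5.54% to 16.5% on leaving out 1 mouse, against 15.6% with all mice. On APOE2 leaving out 1 mouse left 0 without E2H replicate 1 or 3, 1 without PS/E2H replicate 1 or 3 and up to 3 otherwise, and DESeq2 passed 5 there. All genes again moved likewise, from 0.752% to 0.146% and 0.17% without E2H replicate 1 or 3, 0.223% and 0.338% without PS/E2H replicate 1 or 3 and 2.87% with DESeq2. The comparisons of the 3 lines differ in which receptors passed, and whether the tau effects themselves differ is given by the interaction tests further on.

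**Figure D2:**
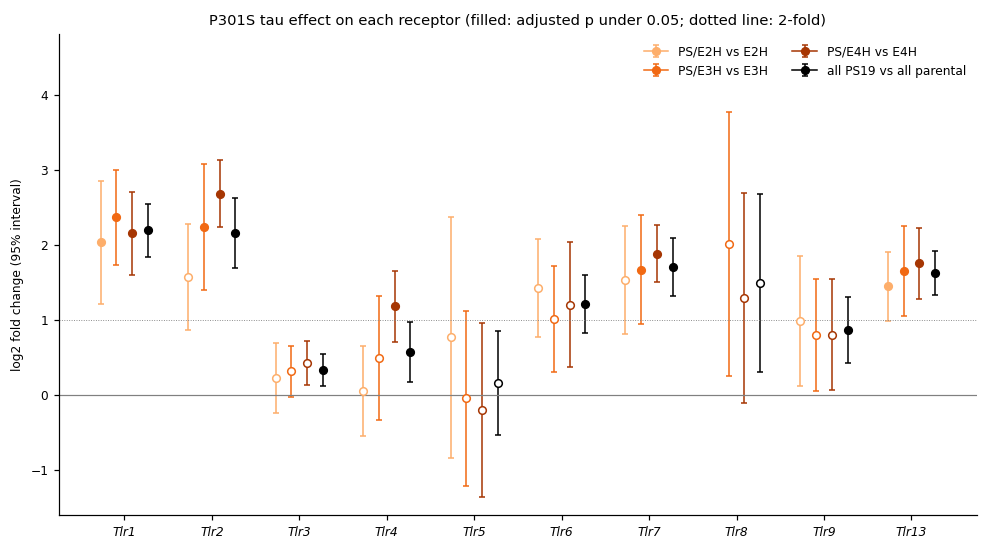
Log2 fold change of each receptor (vertical axis, bars for the 95% interval) in PS19 against parental mice of each APOE line and over all lines, with filled points for adjusted p under 0.05 and a dotted line at a fold of 2. Over all lines Tlr1 at 2.19 and Tlr2 at 2.16 stood highest and Tlr5 at 0.16 lowest.

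Tlr1 and Tlr6 each pair with Tlr2 to bind bacterial lipopeptides with 3 or 2 acyl chains respectively. Tlr1 was at 0.0915, 0.197 and 0.124 FPKM in E2H, 0.136, 0.128 and 0.190 in E3H and 0.198, 0.174 and 0.253 in E4H mice. It was at 0.646, 0.525, 0.783 and 0.387 FPKM in PS/E2H, 0.539, 1.04, 0.774 and 0.794 in PS/E3H and 1.19, 0.967, 0.690 and 0.877 in PS/E4H mice. All 12 PS19 mice lay above all 9 parental mice. The share of all genes that separate in this way, over all mice or within a line, was not counted. The log2 fold change was 2.03 (SE 0.37, adjusted p = 0.0424) on APOE2, 2.37 (SE 0.28, adjusted p = 0.00295) on APOE3 and 2.15 (SE 0.25, adjusted p = 0.000641) on APOE4, and over all lines 2.19 (95% interval 1.83 to 2.55, adjusted p = 8.87e-09), about 4.57-fold. On APOE2 the call was lost without PS/E2H replicate 2, the low-Xist mouse of that group (adjusted p = 0.0643), and without any of E2H replicates 1 and 3 and PS/E2H replicates 1 and 3 (adjusted p from 0.104 to 0.210).

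Tlr2, the shared partner, was at 0.899, 0.900 and 0.498 FPKM in E2H, 0.315, 0.718 and 0.711 in E3H and 0.471, 0.545 and 0.591 in E4H mice. It was at 2.33, 2.60, 3.10 and 1.29 FPKM in PS/E2H, 1.30, 3.43, 2.31 and 3.73 in PS/E3H and 4.44, 2.76, 2.74 and 3.85 in PS/E4H mice. Again all 12 PS19 mice lay above all 9 parental mice, with PS/E2H replicate 4 and PS/E3H replicate 1 lowest in their groups. The log2 fold change was 2.68 (SE 0.20, adjusted p = 6.40e-05) on APOE4, which is 6.41-fold and the highest among the receptors there, and 2.23 (SE 0.38, adjusted p = 0.0125) on APOE3. On APOE2 it was 1.57 (SE 0.32) and did not pass by edgeR (adjusted p = 0.0622), while DESeq2 passed it (adjusted p = 2.28e-05). Over all lines it was 2.16 (95% interval 1.69 to 2.62, adjusted p = 3.72e-07). The APOE3 call was lost without E3H replicate 1 (adjusted p = 0.0660) or replicate 3 (adjusted p = 0.0568).

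Tlr6 was at 0.109 to 0.267 FPKM in parental mice and at 0.221 to 0.620 in PS19 mice. Its groups did not overlap on APOE2, APOE3 or APOE4, but its adjusted p was 0.0665, 0.0980 and 0.0558, so it passed in no single line by edgeR, while DESeq2 passed it in each (adjusted p = 0.00506, 0.0451 and 0.0221). Over all lines it passed at a log2 fold change of 1.21 (95% interval 0.83 to 1.60, adjusted p = 5.44e-05). The ratio of Tlr1 to Tlr6, compared after their values were seen, had a log2 of -0.22 ± 0.45 in the 9 parental mice (-0.87 to 0.42) and 0.79 ± 0.63 in the 12 PS19 mice (-0.033 to 1.96). The difference within lines was 1.01 on the log2 scale (two-sided exact permutation test over all 42875 rearrangements within lines, p = 0.00063). The ranges overlapped, and the reads that the 2 genes share limit this ratio.

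Tlr4, the lipopolysaccharide receptor, was at 0.210, 0.257 and 0.230 FPKM in E2H, 0.280, 0.357 and 0.179 in E3H and 0.164, 0.199 and 0.165 in E4H mice. It was at 0.261, 0.189, 0.331 and 0.204 in PS/E2H, 0.160, 0.377, 0.545 and 0.436 in PS/E3H and 0.431, 0.407, 0.320 and 0.435 in PS/E4H mice. The groups were apart on APOE4 and overlapped on APOE2 and APOE3. The log2 fold change was 1.18 (SE 0.21, adjusted p = 0.00616) on APOE4, 0.49 (SE 0.37, adjusted p = 0.503) on APOE3 and 0.05 (SE 0.27, adjusted p = 0.974) on APOE2, where the 95% interval ran from -0.55 to 0.65. The APOE4 call was lost without the low-Xist mice (1.03, adjusted p = 0.0891). Over all lines Tlr4 passed narrowly at 0.57 (95% interval 0.17 to 0.98, adjusted p = 0.0393), a call lost in the high-Xist mice alone (0.51, adjusted p = 0.117). It was also lost (adjusted p from 0.0506 to 0.0918) without any 1 of E2H replicate 1, E3H replicates 1 and 3, E4H replicates 1, 2 and 3, PS/E2H replicate 3, PS/E3H replicates 3 and 4 and PS/E4H replicates 1, 2 and 4. Tlr5 had 5 to 38 counts in every mouse and overlapped between groups in each line, with a log2 fold change over all lines of 0.16 (95% interval -0.53 to 0.86, adjusted p = 0.791).

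**Figure D3:**
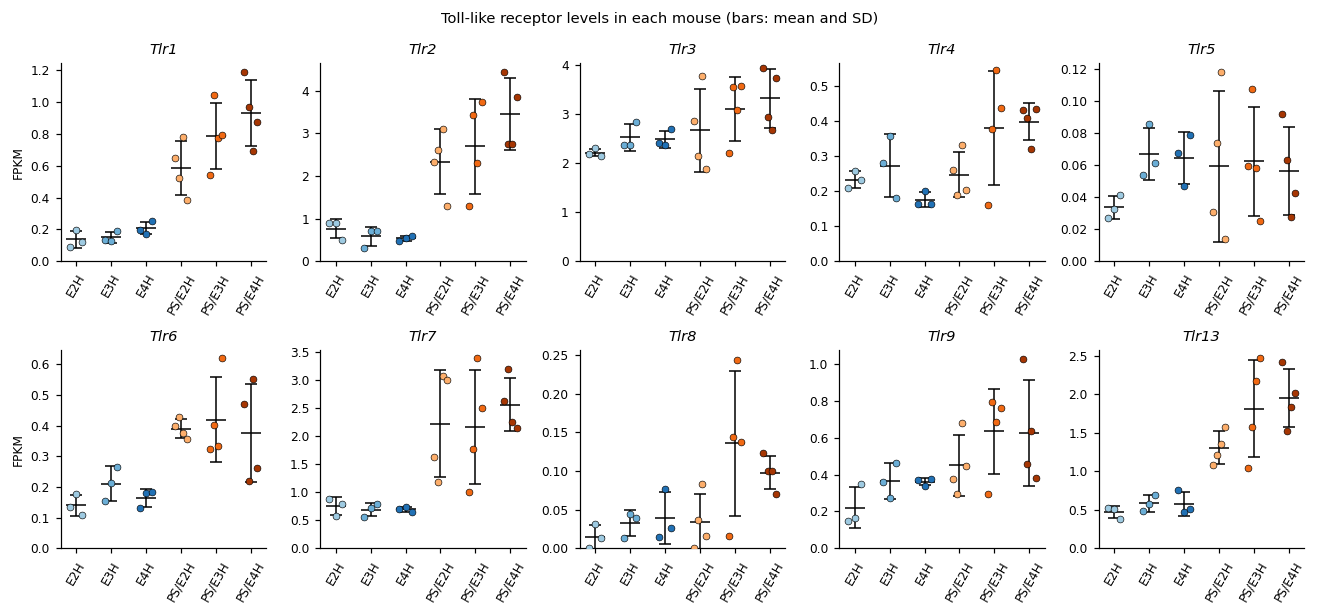
FPKM of each receptor (vertical axis, a separate linear scale from 0 per panel) in each mouse of the 6 groups, with the mean and SD (lower bars of Tlr8 are cut at 0). All 12 PS19 mice lie above all parental mice for Tlr1, Tlr2, Tlr7 and Tlr13, while those of Tlr3, Tlr4, Tlr5, Tlr6, Tlr8 and Tlr9 overlap. The share of all genes that separate in this way was not counted.

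Among the endosomal receptors, Tlr7 binds RNA strands rich in uridine and Tlr13 binds bacterial ribosomal RNA. Tlr7 was at 0.887, 0.582 and 0.785 FPKM in E2H, 0.564, 0.711 and 0.786 in E3H and 0.693, 0.745 and 0.650 in E4H mice. It was at 1.62, 1.19, 3.07 and 2.99 FPKM in PS/E2H, 1.01, 1.76, 3.39 and 2.51 in PS/E3H and 2.63, 3.19, 2.25 and 2.15 in PS/E4H mice. All 12 PS19 mice lay above all 9 parental mice, with a wider spread in PS/E2H and PS/E3H than in PS/E4H. The log2 fold change was 1.88 (SE 0.17, adjusted p = 0.000179) on APOE4, 1.67 (SE 0.33, adjusted p = 0.0209) on APOE3 and 1.53 (SE 0.32, adjusted p = 0.0735) on APOE2, where DESeq2 passed it (adjusted p = 3.58e-05), and over all lines 1.70 (95% interval 1.32 to 2.08, adjusted p = 6.70e-07). In high-Xist mice alone it also passed on APOE2 (1.74, adjusted p = 0.0298). The APOE3 call was lost without any 1 of the 3 E3H mice or PS/E3H replicate 4 (adjusted p from 0.0568 to 0.114).

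Tlr13 was at 0.522, 0.507 and 0.381 FPKM in E2H, 0.483, 0.576 and 0.697 in E3H and 0.759, 0.469 and 0.511 in E4H mice. It was at 1.09, 1.22, 1.35 and 1.58 FPKM in PS/E2H, 1.05, 1.58, 2.17 and 2.47 in PS/E3H and 2.42, 1.53, 1.84 and 2.03 in PS/E4H mice. Here too no PS19 mouse overlapped a parental mouse, and PS/E2H replicate 4, low in its group for Tlr1 and Tlr2, was the highest of its group. The log2 fold change was 1.44 (SE 0.21, adjusted p = 0.0158) on APOE2, 1.65 (SE 0.27, adjusted p = 0.0112) on APOE3 and 1.75 (SE 0.21, adjusted p = 0.000880) on APOE4, and over all lines 1.62 (95% interval 1.33 to 1.92, adjusted p = 4.54e-08). The call was lost on APOE3 without E3H replicate 1 or 2 (adjusted p = 0.0707 and 0.0540) and on APOE2 without E2H replicate 1 or 3 (adjusted p = 0.0764 and 0.0897). Both X-linked receptors passed in the high-Xist mice alone over all lines, Tlr7 at 1.77 and Tlr13 at 1.56.

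Tlr9, the receptor for unmethylated CpG DNA, was at 0.146 to 0.465 FPKM in parental mice and 0.293 to 1.03 in PS19 mice, and overlapped between groups. It passed in no single line, and over all lines at 0.87 (95% interval 0.43 to 1.31, adjusted p = 0.00484). Tlr3 had 792 to 1196 counts in parental mice and 652 to 1422 in PS19 mice, and the smallest change that passed. Its log2 fold change was 0.33 over all lines (95% interval 0.11 to 0.55, adjusted p = 0.0270), with 0.23, 0.32 and 0.42 on APOE2, APOE3 and APOE4 and no call in any of them by edgeR, while DESeq2 passed it on APOE4 (adjusted p = 0.0167). In high-Xist mice alone it was 0.31 and did not pass (adjusted p = 0.0603), nor did it without any 1 of E3H replicates 1 and 2, E4H replicates 1 and 2 and PS/E3H replicate 4 (adjusted p from 0.0503 to 0.0586). Tlr8, a neighbour of Tlr7 on the X chromosome, had 0 counts in 1 E2H and 1 PS/E2H mouse, where up to 3 counts are allowed, and at most 58 in any mouse. Its log2 fold change over all lines was 1.49 with a 95% interval of 0.30 to 2.67, and it did not pass by edgeR (adjusted p = 0.0693) but did by DESeq2 (adjusted p = 0.0273).

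The comparisons of APOE genotypes ask whether the level of these receptors differs between the APOE lines. In the survival cohorts of the study PS/E3H mice reached paralysis later than PS/E2H and PS/E4H mice. Between PS19 groups, and in the interaction tests further on, allele and age at death therefore cannot be told apart. In the 3 parental comparisons 0 receptors passed edgeR's test, where 0.178% (E2H against E3H), 0.162% (E4H against E3H) and 0.216% (E4H against E2H) of all genes passed in either direction, and 0 receptors had an unadjusted p under 0.05. The intervals were wide for the scarce receptors. For Tlr3, the most precisely measured, E4H against E2H was 0.12 on the log2 scale with a 95% interval of -0.15 to 0.38, and for Tlr2 it was -0.57 (-1.20 to 0.063). In PS19 mice 0 receptors passed between PS/E2H and PS/E3H, between PS/E4H and PS/E3H or between PS/E4H and PS/E2H, where 0.113%, 0.0197% and 0.119% of all genes passed. DESeq2 also passed 0 receptors in these 6 comparisons, where it passed 3.52%, 0.753% and 1.6% of all genes in the parental comparisons and 0.639%, 0.175% and 0.953% in those of PS19 mice, in the same order.

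Between PS/E4H and PS/E2H, 4 receptors had an unadjusted p under 0.05, where 12.3% of all genes did, and each was higher in PS/E4H. They were Tlr13 at a log2 fold change of 0.55 (95% interval 0.19 to 0.91), Tlr4 at 0.67 (0.17 to 1.16), Tlr1 at 0.65 (0.11 to 1.18) and Tlr2 at 0.54 (0.013 to 1.06), with adjusted p from 0.298 to 0.398 in edgeR's test. The microglial markers moved with them, at a geometric mean of 21.7 to 43.2 CPM in PS/E2H and 43.2 to 51.1 CPM in PS/E4H mice. Without PS/E2H replicate 4 the lowest PS/E2H mouse was at 37.5 CPM. The part of the markers in these differences was not tested. The other 2 PS19 comparisons had 0 receptors at an unadjusted p under 0.05.

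Interaction tests asked whether the tau effect differs between APOE lines. Of the 10 receptors 0 passed in any of the 3 interactions by edgeR or by DESeq2. By edgeR 0% of all genes passed, and by DESeq2 1.27%, 0.0293% and 0.0403% did for APOE4 against APOE2, APOE4 against APOE3 and APOE2 against APOE3. Between APOE4 and APOE2, 2 receptors had an unadjusted p under 0.05, against 11.4% of all genes. These were Tlr4, with a difference of 1.13 between the log2 fold changes (95% interval 0.24 to 2.02, adjusted p = 0.323), and Tlr2, with 1.11 (0.12 to 2.11, adjusted p = 0.382). The tau effect on Tlr1 differed by 0.12 (-0.75 to 0.99) and that on Tlr13 by 0.31 (-0.41 to 1.02), intervals that leave room for differences of up to about 2-fold. Between APOE4 and APOE3 and between APOE2 and APOE3, 0 receptors had an unadjusted p under 0.05. The different numbers of receptors that passed per line are therefore not shown to be differences between lines.

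Of 13 markers of microglia, 12 passed higher on APOE4, 7 on APOE3 and 1 on APOE2, where 8.62%, 3.35% and 0.669% of all genes did. Over all lines 9 of the 13 passed higher and 0 lower, against 11.4% and 9.63% of all genes, among them Csf1r, the receptor that microglia need to survive (0.81, SE 0.06), Fcrls (1.33, SE 0.17) and Cx3cr1 (0.70, SE 0.11), and their median log2 fold change was 0.70. The geometric mean of the 13 markers was 24.5 to 32.8 CPM in parental mice and 21.7 to 51.1 in PS19 mice. The overlap came from PS/E2H replicate 4 alone, at 21.7, and the next lowest PS19 mouse, PS/E3H replicate 1, was at 34.3. The receptors were set against the marker mean in each mouse, without a test and without a count over all genes. Tlr1 and Tlr2 stood above all parental mice in 12 of 12 PS19 mice, by 1.60 and 1.55 on the log2 scale (SD between mice 0.27 and 0.39), Tlr7 in 10 of 12, by 1.03 (SD 0.55), and Tlr13 in 10 of 12, by 1.01 (SD 0.38). Tlr6 followed at 0.59 (SD 0.41) and Tlr9 at 0.23 (SD 0.54). Tlr3 at -0.30 (SD 0.18), Tlr4 at -0.052 (SD 0.38) and Tlr5 at -0.61 (SD 0.66) had 0 PS19 mice above the highest parental mouse. PS/E2H replicate 4, with the lowest marker mean, had the highest ratios of Tlr6, Tlr7, Tlr9 and Tlr13 of all mice. Tlr8 was left out because of its counts of 0.

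**Figure D4:**
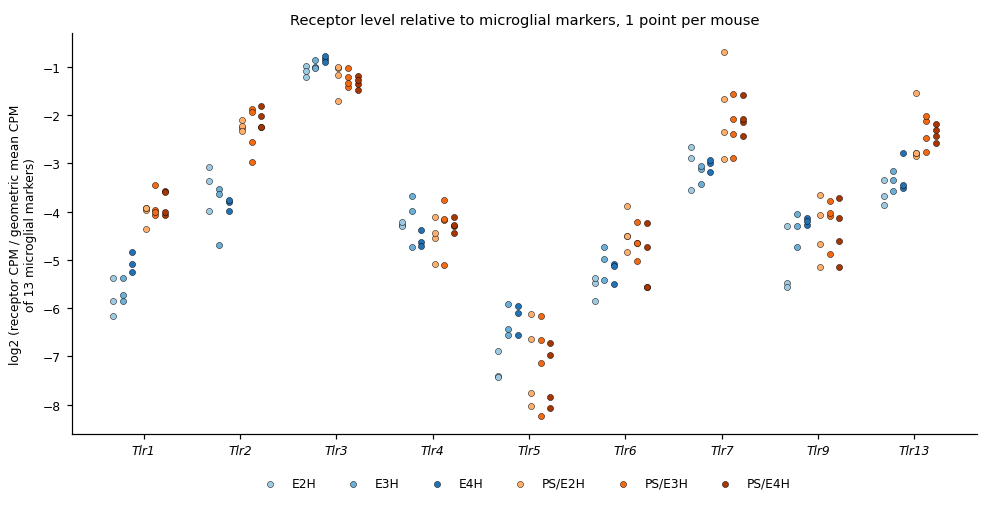
Log2 ratio of receptor CPM to the geometric mean CPM of 13 microglial markers (vertical axis), 1 point per mouse in 6 groups. For Tlr1 and Tlr2 the 12 PS19 mice lie above the 9 parental mice, and for Tlr3, Tlr4 and Tlr5 no PS19 mouse lies above the highest parental mouse.

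With the marker mean as a covariate in the fit over all lines, 5 receptors passed higher, against 2.95% of all genes in that fit. They were Tlr7 at a log2 fold change of 1.72 (SE 0.27), Tlr1 at 1.64 (SE 0.21), Tlr13 at 1.47 (SE 0.20), Tlr2 at 1.18 (SE 0.22) and Tlr6 at 1.04 (SE 0.28), with adjusted p of 0.0367 or less. Tlr3 was then at -0.13 (SE 0.12) and Tlr4 at -0.050 (SE 0.26), and neither passed. The markers of other cells were tested over all lines without this covariate, where 11.4% of all genes passed higher and 9.63% lower. Other myeloid markers also moved. Of 7 markers of perivascular macrophages and monocytes, 5 passed higher over all lines, including F13a1 (1.45), Mrc1 (1.29), Lyve1 (1.29) and Cd163 (0.96), and their summed level was 7.49 to 13.3 CPM in parental mice and 14.7 to 32.9 CPM in PS19 mice. Of 7 neutrophil markers 1, Ngp, passed, the list summing to 0.155 to 36.2 CPM over all mice, and Ly6g, Retnlg, Camp and Mmp8 had a median of 3 counts or fewer. Of 6 T cell and 5 B cell markers, 0 passed by edgeR over all lines, and 1 of each list had an unadjusted p under 0.05. Their summed levels overlapped between parental and PS19 mice, within 7.24 to 13.04 CPM for T cells and 0.326 to 3.76 CPM for B cells. Astrocyte markers passed higher in 7 of 7, with Gfap at 2.68 (SE 0.14). The part of these cell types in the receptor levels was not tested.

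The proteins that serve the receptors were compared over all lines, where 11.4% of all genes passed higher and 9.63% lower. Of 15 co-receptors and chaperones, 11 passed higher and 0 lower, with a median of 0.68. Cd14, which hands lipopolysaccharide to Tlr4 and lipopeptides to Tlr2, was at 1.79 (SE 0.14), and Ctss, Ctsl and Ctsb, proteases that trim the endosomal receptors, were at 1.51, 0.70 and 0.63. Singled out after their values were seen, Unc93b1, which carries the endosomal receptors to endosomes, passed at 0.92, and Ly96 (MD-2), the partner of Tlr4, was at 0.28 and did not pass (adjusted p = 0.512).

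Of 5 adaptors, 3 passed higher and 1 lower. Ticam2, the bridge from Tlr4 to Ticam1, was at 1.55 (SE 0.16), against 0.38 for Myd88 and 0.34 for Ticam1, and Sarm1, an adaptor of neurons that drives axon loss, fell by 0.33 on the log2 scale. Of 15 kinases and ubiquitin ligases, 2 passed higher, Irak4 (0.76), the kinase that docks on Myd88, and Ikbke (0.72), and 1, Chuk, fell by 0.28, counts near the shares of all genes, with a list median of 0.032 against -0.0060 for all genes.

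Of 12 transcription factors, 8 passed higher and 0 lower, with a median of 0.29. The myeloid factors Spi1 (1.08, SE 0.11), Irf8 (1.21, SE 0.14) and Irf5 (0.80, SE 0.12) had the smallest adjusted p, and Jun was at 0.28. Of 12 inhibitors, 4 passed higher and 1 lower. Lilrb4a, an inhibitory receptor with a near-identical neighbouring copy that makes its count uncertain, was at 3.14 (SE 0.35), Pik3ap1 at 1.14, Nfkbia, the NF-kB inhibitor that NF-kB itself induces, at 0.995, and Tollip at 0.15, while Cyld, named because it was the lower gene, fell by 0.14.

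Of 12 cytokines and other induced targets, 10 were tested and 7 passed higher, with a median of 1.42. The chemokines Ccl4 (3.09, SE 0.55), Ccl3 (2.59, SE 0.23) and Cxcl10 (1.73, SE 0.29) and the inflammasome sensor Nlrp3 (0.81, SE 0.19) had the smallest adjusted p. Il12b and Ifnb1 had a median of 3 counts or fewer and were not tested. In single lines the targets that passed were 5 of 10 tested on APOE4, 2 of 9 on APOE3 and 1 of 8 on APOE2, where 8.62%, 3.35% and 0.669% of all genes passed higher, and Ccl3 passed in each, at 2.62, 2.54 and 2.60.

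For each receptor the genes with the most similar deviations from the group means over the 21 mice were listed as a description, with Pearson's r on log2 CPM. The genes were picked for the highest r among all genes of the fit over all lines, so r was not tested. Tlr3 was nearest to Slc16a1 (r = 0.92) and Add3 (0.92), Tlr1 to Mid1ip1 (0.90) and Pla2g7 (0.88), Tlr2 to Slamf9 (0.89) and Rad50 (0.86) and Tlr4 to Cd84 (0.87). Tlr7 was nearest to Itprid2 (0.91) and Alkbh5 (0.86), Tlr9 to Syk (0.87) and Slc7a2 (0.85), and Tlr13 to Sdc4 (0.84) and Socs3 (0.81). The scarce receptors were nearest to Slc2a10 (0.86) and H2-Ab1 (0.82) for Tlr8, Kcna6 and Mtss1 (both 0.83) for Tlr5, and Gm31406 (0.86) and Adra1b (0.81) for Tlr6. Over all lines 11 of the 20 nearest genes passed higher and 0 lower, against 11.4% and 9.63% of all genes. As they were picked for following the receptors in these same mice, this count is a description and was not tested. Those that passed ran from Cd84 at 1.95, H2-Ab1 at 1.94 and Slamf9 at 1.49 on the log2 scale to Add3 at 0.27. Mid1ip1 (0.11), Rad50 (-0.0091) and 7 others did not pass. Among the receptors themselves the closest pairs were Tlr1 with Tlr3 (r = 0.81) and Tlr2 with Tlr3 (0.74).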

How the data were processed

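Forebrain RNA of 21 mice was placed in 6 groups from the labels. The authors made stranded poly(A) libraries, trimmed reads with Cutadapt, aligned them with HISAT2 to GRCm38 (GRCm38.p5 in the submitters' processing notes) and quantified transcripts with StringTie and ballgown, and they deposited unnormalized counts per gene and FPKM values computed by StringTie. Versions of these tools are not given in the sources used here. The study tested groups with DESeq2.

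The receptors and gene lists were chosen with earlier results of these data known. All genes of a comparison were fitted to the counts with edgeR 4.0.16 (TMM, filterByExpr with a minimum count of 10 and minimum total of 15, quasi-likelihood test) in R 4.3.3, with Benjamini-Hochberg adjustment over all genes tested. The pooled fit and the interactions used all 21 mice. Alternatives used DESeq2 1.42.0 and limma 3.58.1, the latter on log2(FPKM + 0.1) or log2(FPKM + 1), and the fits without low-Xist mice were added after the data were seen. Python 3.11.15, pandas 2.3.3, NumPy 2.4.6, SciPy 1.17.1 and matplotlib 3.10.9 were used for the rest. On simulated counts for the APOE4 comparison (20844 genes), 83.0% of genes changed by 1 on the log2 scale and 91.9% of those changed by 2 were recovered. The changed genes were drawn only from those above a floor of expression. Their spread was that typical of genes at their level, so these shares need not hold for scarce or more variable receptors.

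The named genes are the 10 receptors, up to 4 passing genes of each list with the smallest adjusted p over all lines, and the 2 nearest genes of each receptor, and genes outside this rule are said to be. Some genes that this rule names are not reported here. Total counts were 59265459 to 75932183, and counts carry counting error besides the spread between mice. The 27 pairs of mice within groups included 0 with identical values. Same-numbered mice of different groups did not deviate together (r from -0.155 to 0.150), and 0 columns of the tables were left unmapped.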

Additional observations from a re-analysis of the deposited data

Results flagged for a closer look

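Tlr4 in PS/E4H replicate 3 stood apart from the other 3 mice of its group, at 1.97 CPM against 2.49 for the nearest mouse and 2.59 for the highest. The gap was 0.835 of the range of the group, above Dixon's 95% critical value for 4 samples. Of 30 groups of 4 mice examined in this way, 1 was marked, and chance marks about 1 in 20.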

How the results depend on the processing

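The 9 comparisons of APOE lines and interactions had 0 receptors past the threshold in 153 of 153 alternatives. For the comparisons of APOE lines these include the edgeR fit itself with a fold of at least 2 also required, which could only give 0. The number of receptors higher in PS19 mice on APOE4 stayed between 4 and 7 in every alternative run. The share of all genes that passed there in either direction ran from 5.54% to 22.9%. On APOE3 the number of receptors was between 3 and 5 except on leaving out 1 mouse, when it ran from 1 to 7. The share of all genes there ran from 0.522% to 12.9%. On APOE2, where the edgeR fit passed 2, it was 1 with no filter on low counts, 1 with limma on log2(FPKM + 1), 5 with DESeq2, 5 with all 21 mice in 1 fit and 0 to 3 on leaving out 1 mouse. In the same 4 fits 0.212%, 0.456%, 2.87% and 2.44% of all genes passed in either direction, against 0.752%. Over all lines it was 8, and 5 with the microglial markers as a covariate or with a fold of at least 2 required, and between 6 and 9 otherwise. Of all genes 4.05% passed in either direction with that covariate and 11.1% to 24.7% in the other alternative fits, against 21%. With that covariate Tlr3 turned to -0.13, Tlr4 to -0.050 and Tlr5 to -0.51. Against a smaller set of 4 microglial markers, the level of Tlr1 relative to markers moved to 1.30 and that of Tlr3 to -0.59, and the other 7 receptors moved by less than the spread between mice. The cause was not tested.

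The replicate numbers did not pair the mice, since 2 of 48 same-numbered pairs had a correlation over 0.1. A fit with the replicate number as a block passed 5 receptors on APOE4, 4 on APOE3, 3 on APOE2 and 7 over all lines. In the same order 5.99%, 2.49%, 1.19% and 16.7% of all genes passed in either direction. The block turned Tlr5 on APOE3 from -0.047 to 0.16. Leaving out 1 mouse moved Tlr5 between -0.51 and 0.013 on APOE4, between -0.39 and 0.19 on APOE3 and between -0.011 and 0.25 over all lines. It moved Tlr4 on APOE2 between -0.10 and 0.17, and the Tlr1 interaction of APOE4 with APOE2 between -0.28 and 0.35. Each of these results passed in 0 of its fits without 1 mouse. CPM per kilobase in place of FPKM gave shares of Tlr3 of 45.8% in parental and 25.4% in PS19 mice, against 45.9% and 25.4%. Depth limits Tlr5 and Tlr8 most.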
